A study of Phalaenopsis aphrodite subsp. formosana with 2 samples.

Results

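RNA was sequenced from leaves of a moth orchid, Phalaenopsis aphrodite subsp. formosana, with material taken from a yellow sector and a green sector of the variegation mutant, with 1 library for each. The results below concern 219 loci that were abundant in both libraries and differed little between them, out of 16843 loci in the table. They were chosen from the measured values by 3 limits: a contig of at least 1000 bases, at least 100 FPKM in each sector, and a ratio of the sectors within 2-fold. FPKM stands for fragments per kilobase of transcript, scaled to the mapped fragments of the library, and a contig is an assembled transcript sequence that takes the place of a chromosome in this table. The ratio was log2((yellow FPKM + 1) / (green FPKM + 1)), so that a positive value means a higher level in the yellow sector. Both samples are labelled as variegation mutant, the growing conditions were a greenhouse and sphagnum moss, and the labels give no plant age, no number of plants or leaves per library, and no allele.

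Variegated leaves carry sectors whose cells differ in pigment, and in many variegated plants the pale cells hold plastids that have not formed a full photosynthetic apparatus. Nuclear transcripts for light-harvesting proteins and for the small subunit of Rubisco are typically among the most abundant in green leaf tissue, beside transcripts for protein synthesis and for other functions that every cell uses. Which of these functions the 219 loci serve was not examined, because the table pairs 0 of them with a gene name. For the same reason the leaf label was not checked against leaf markers. Each locus is therefore described by the length of its contig. Neither sector was sequenced from a second library, so replicate spread is unknown, no test was made, and the 2-fold limit is a rule of size alone. The depth of the libraries is unknown, since the table holds no counts. In RNA from the tissue of a leaf sector, fewer cells of a type and less RNA per cell cannot be told apart.

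Of 11454 loci on contigs 1000 or more bases long, called long-contig loci here, 364 reached 100 FPKM in the yellow sector and 338 did in the green sector, of which 255 did in both. Of the 255 loci, 219 (85.9%) lay within 2-fold, 24 (9.41%) were at least 2-fold higher in the yellow sector and 12 (4.71%) were at least 2-fold lower. Over all measured long-contig loci those shares were 6.72% and 4.26%. Similar ratios were the rule in the table as a whole, with 82.3% of 16808 measured loci and 89.0% of 11419 measured long-contig loci within 2-fold, where a locus counted as measured at 1 FPKM or more in at least 1 sector. The share among abundant loci was thus not above that of long-contig loci in general. These shares rest on different rules, since the floor of 100 FPKM applied to both sectors and that of 1 FPKM to either. When 100 FPKM in either sector was enough, 323 of 447 long-contig loci (72.3%) lay within 2-fold. The 219 loci lay on 215 contigs, since 4 contigs carried 2 of them each, and they made up 1.92% of the measured long-contig loci.

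**Figure D1:**
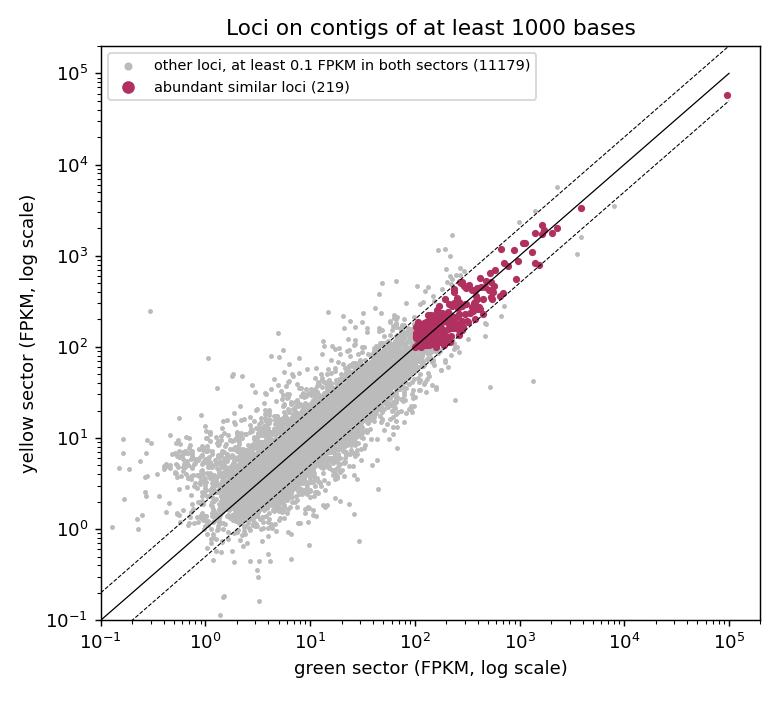
FPKM in the yellow sector (vertical, log scale) against the green sector (horizontal, log scale) for long-contig loci listed at 0.1 FPKM or more in both; each point is a locus, the solid line marks equal levels and the dashed lines mark 2-fold. The 219 abundant similar loci fill the corner above 100 FPKM between the dashed lines, and 1 of them lies far above the rest at 57389.9 FPKM in yellow and 95090.5 FPKM in green.

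Levels in both sectors spanned a wide range with most loci near the floor. The median was 181 FPKM in the yellow sector (quartiles 135 and 298) and 186 FPKM in the green sector (quartiles 136 and 305). At least 200 FPKM was reached by 94 loci in yellow and by 98 in green, and by 77 loci in both. At least 1000 FPKM was reached by 13 loci in each sector, of which 11 were the same loci.

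The most abundant of the 219 loci stood apart from the rest of them. It lay on a 1037-base contig and was listed at 57389.9 FPKM in the yellow sector, against 95090.5 FPKM in the green sector, 1.66-fold lower in yellow. These levels were 17.2 times the next highest of the 219 loci in yellow and 24.8 times the next highest in green. It alone held 45.7% of the summed FPKM of the 219 loci in yellow and 57.8% in green. The summed FPKM of the 219 loci in yellow was therefore 0.763 of that in green with this locus and 0.980 without it.

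The next loci, in order of the geometric mean of the sectors (taken over FPKM + 1, less 1), were of more usual level. The locus on a 1299-base contig had 3341 FPKM in yellow and 3828 FPKM in green. One on a 1121-base contig had 2002 FPKM in yellow and 2258 FPKM in green, and one on a 1026-base contig had 1785 FPKM in yellow and 2049 FPKM in green. These 4 most abundant loci were all lower in the yellow sector at the deposited scaling. The following 6 were all higher there. A locus on a 1570-base contig had 2190.2 FPKM in yellow and 1645 FPKM in green, a 1.33-fold higher value. The locus on a 2789-base contig had 1919 FPKM in yellow and 1711 FPKM in green, and that on a 1182-base contig had 1723 FPKM in yellow and 1641 FPKM in green. The remaining 3 differed by 1.22-fold to 1.27-fold. They were a locus on a 4178-base contig with 1786 FPKM in yellow and 1414 FPKM in green, one on a 1093-base contig with 1383 FPKM in yellow and 1137 FPKM in green, and one on a 1659-base contig with 1383 FPKM in yellow and 1085 FPKM in green.

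**Figure D2:**
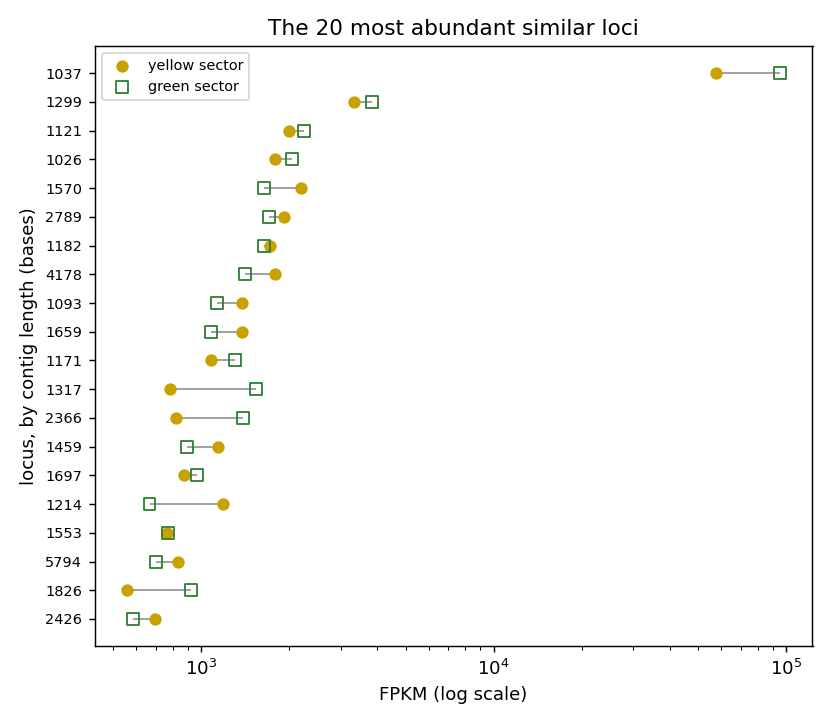
FPKM (log scale) of the 20 most abundant of the 219 loci, 1 row per locus in order of the geometric mean of the sectors and labelled by contig length in bases; filled circles are the yellow sector and open squares the green sector, joined by a line. The locus on the 1037-base contig lies more than a factor of 10 above the others, and the widest gap is that of the locus on the 1317-base contig, with 781 FPKM in yellow and 1539.8 FPKM in green.

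Both limits of the choice bear on the agreement of the sectors, which is given as a description only. Spearman's rho of FPKM was 0.87 across all measured long-contig loci, which span a wider range of levels. It was 0.70 across the 255 loci with no limit on the ratio and 0.80 across the 219 loci. Pearson's r of log2(FPKM + 1) across the 219 was 0.93 with the most abundant locus and 0.91 without it. These values are across loci, which share the libraries and are not independent replicates. Within the 219 loci, 18 of the 20 highest in yellow were among the 20 highest in green, an overlap that the 2-fold limit favours. Over all 219 loci the median change of rank was 23 places and the largest was 107 places, for a locus on a 1390-base contig with 112 FPKM in yellow and 215 FPKM in green.

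The ratios were centred near equality and filled the allowed range. The median log2 ratio was -0.01, with quartiles at -0.35 and 0.28, against a median of 0.01 over all measured loci. At the deposited scaling 105 of the 219 loci (47.9%) were higher in the yellow sector and 114 were lower, where 49.8% of the measured long-contig loci were higher. The split varied with scaling. After division of yellow FPKM by 1.18, which equals the summed FPKM in yellow over that in green once the top locus of the table, on a short contig and at 210000000 FPKM in yellow and 64900000 FPKM in green, is removed, the median of all measured loci moved to -0.20 and that of the 219 loci to -0.24. Then 64 of the 219 (29.2%) were higher in yellow, against 37.2% of all measured loci, and 208 of the 219 were still within 2-fold. At the deposited scaling 50.4% of all measured loci were higher. With the 100 most abundant loci of the table left out of the sums instead, the divisor was 1.05. The median was then -0.05 for all measured loci and -0.08 for the 219 loci, of which 43.4% were higher in yellow. Both divisors rest on summed FPKM, which a few very high values can dominate, so neither is put forward as the better scaling.

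Within the limit, 113 loci (51.6%) had a log2 ratio within 0.32 of equality, 57 of them higher and 56 lower in yellow. Without any limit on the ratio, that share was 44.3% of the 255 loci abundant in both sectors (113 loci) and 47.0% of all measured long-contig loci. Both of those sets include loci beyond 2-fold, which lowers their shares by construction. Among the measured long-contig loci within 2-fold, 5368 of 10166 had a log2 ratio within 0.32 of equality. The 51.6% is therefore not read as a narrower spread than that of other similar loci. A difference below 1.1-fold was found for 49 loci, 22 of them higher and 27 lower in yellow. At the outer edge, 44 loci (20.1%) differed by 1.5-fold or more, 16 of them higher and 28 lower in yellow. Beyond the limit the lean was the other way, with 24 of the 255 loci at least 2-fold higher and 12 at least 2-fold lower. The lean at the edge thus depends on where the limit falls. Shares of other long-contig loci below 1.1-fold or from 1.5-fold to the limit are not given, so neither count is read as particular to the chosen loci.

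**Figure D3:**
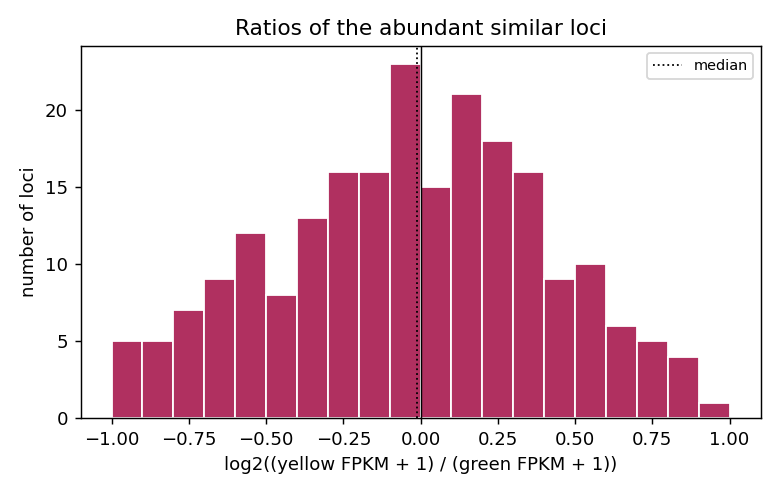
Number of loci (vertical) by log2 ratio of yellow to green (horizontal, steps of 0.1) for the 219 abundant similar loci; the solid line marks equal levels and the dotted line the median of -0.01. The ratios gather around 0 and thin out towards both limits.

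The 5 loci nearest to equal levels lay between 102 and 770.2 FPKM. A locus on a 2025-base contig had 106.5 FPKM in yellow and 106.8 FPKM in green, and one on a 1553-base contig had 765 FPKM in yellow and 770.2 FPKM in green. One of the loci on a 3056-base contig had 136.9 FPKM in yellow and 137.8 FPKM in green. The levels were 102.0 FPKM in yellow and 102.7 FPKM in green for a locus on a 1330-base contig, and 132.0 FPKM in yellow and 133.0 FPKM in green for one on a 1176-base contig. The largest difference among these 5 loci was 1.01-fold.

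At the edges of the ratio, XLOC_014255, on a 2560-base contig, had 516 FPKM in yellow and 269.6 FPKM in green, 1.91-fold higher in yellow. XLOC_008583, on a 1016-base contig, had 520.1 FPKM in yellow and 281 FPKM in green, 1.85-fold higher. In the other direction, XLOC_005566, on a 1591-base contig, had 133 FPKM in yellow and 265 FPKM in green, 1.98-fold lower in yellow. XLOC_005208, on a 1317-base contig, had 781 FPKM in yellow and 1539.8 FPKM in green, 1.97-fold lower. Among loci with at least 100 FPKM in both sectors, those nearest beyond the limit were close to these in size. The first of them on the higher side, on a 2064-base contig, had 320.3 FPKM in yellow and 154 FPKM in green, 2.07-fold higher. The first on the lower side, on a 2157-base contig, had 111 FPKM in yellow and 235 FPKM in green, 2.11-fold lower.

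The other limits cut through continuous values as well. The lowest level among the 219 loci was 100.2 FPKM in yellow, with 115 FPKM in green, and a locus on a 2819-base contig with 99.3 FPKM in yellow and 121 FPKM in green was left out. A locus on a 1757-base contig with 172 FPKM in yellow and 99.9 FPKM in green was also left out, while the lowest green level kept was 101 FPKM, with 100.3 FPKM in yellow. In all, 104 further long-contig loci were within 2-fold and reached 100 FPKM in only 1 sector. The shortest contig kept had 1002 bases (270.4 FPKM in yellow, 406 FPKM in green), and 259 loci on shorter contigs met the limits on level and ratio, up to a 994-base contig with 295 FPKM in yellow and 277 FPKM in green.

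A floor on both sectors also narrows the ratio of loci near it: below a geometric mean of 142 FPKM a locus cannot reach the 2-fold limit without falling under 100 FPKM in 1 sector. This applied to 62 of the 219 loci. The other 157 had a median log2 ratio of -0.03 (quartiles -0.40 and 0.28), and 76 of them (48.4%) had a log2 ratio within 0.32 of 0. To describe similarity by abundance free of this limit, all measured long-contig loci were grouped by the geometric mean of the sectors alone. The share within 2-fold was 82.1% of 1159 loci under 3 FPKM, 90.5% of 4807 loci at 3 to 10 FPKM, 90.6% of 3718 loci at 10 to 30 FPKM and 87.8% of 1399 loci at 30 to 100 FPKM. It was 81.0% of 211 loci at 100 to 200 FPKM, 74.2% of 93 loci at 200 to 500 FPKM and 78.1% of 32 loci at 500 FPKM or more. The share with a log2 ratio within 0.32 of 0 was 47.9%, 42.4%, 36.5%, 31.2% and 46.9% in the same order from 10 FPKM up, and 42.2% under 3 FPKM and 49.6% at 3 to 10 FPKM. The 3 classes from 100 FPKM up and the class under 3 FPKM thus had lower shares within 2-fold than the 3 classes between. This is a description with no test across loci. The 1 added to each FPKM draws ratios towards 0 more in the low classes than above 100 FPKM, so the classes are not on equal terms. The median log2 ratio was between -0.03 and 0.09 in all 7 classes.

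**Figure D4:**
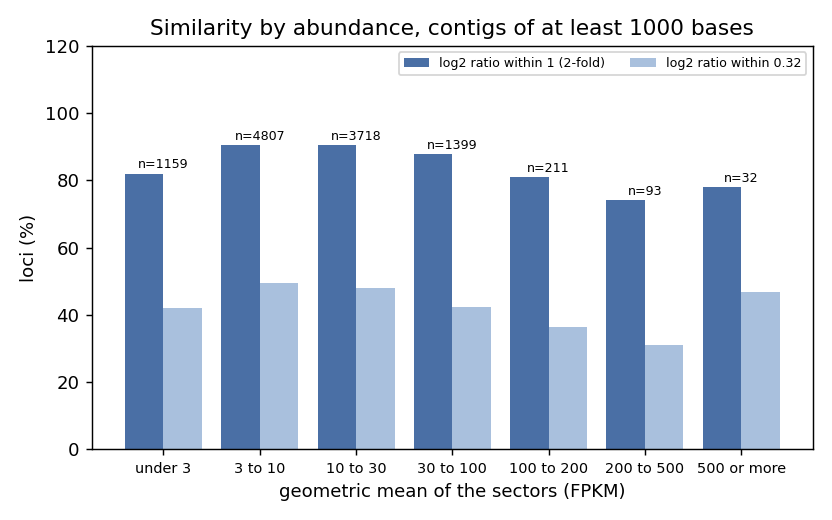
Share of measured long-contig loci (vertical, percent) within 2-fold (dark bars) and with a log2 ratio within 0.32 of 0 (light bars), by geometric mean of the sectors in FPKM (horizontal), with the number of loci above each class. The dark bars reach 90.6% at 10 to 30 FPKM and 74.2% at 200 to 500 FPKM.

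Direction varied with contig length among the 219 loci, and likewise among long-contig loci in general. Of the 152 loci on contigs under 2000 bases, 65 (42.8%) were higher in yellow, with a median log2 ratio of -0.05. Of the 67 on contigs of 2000 bases or more, 40 (59.7%) were higher, with a median of 0.14. Over all measured long-contig loci these shares were 45.9% and 53.7%. The size of the difference is capped by the choice of the 219 loci, and Spearman's rho between the absolute log2 ratio and contig length was 0.01 across them, as a description. Over all measured long-contig loci, 84.3% were within 2-fold on contigs under 1500 bases and 92.3% on contigs of 3000 bases or more. The longest contig had 7763 bases and its locus had 151 FPKM in yellow and 134 FPKM in green. The median length was 1581 bases, against 2006.5 bases for the other measured long-contig loci. The part of contig length in the direction was not tested.

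Contigs are numbered in the assembly, and most of the abundant similar loci lay on low numbers. Contigs numbered up to 1000 carried 112 of the 219 loci (51.1%) and 9.76% of the measured long-contig loci. Contigs 1001 to 2000 carried a further 53 (24.2%), against 9.23% of the long-contig loci. Only 4 lay on contigs 8001 to 14000, which held 26.9% of the long-contig loci, while 8 (3.65%) lay on higher numbers, which held 0.955% of them. The levels of long-contig loci in general also differed by number, with a median of 24.2 FPKM in yellow and 24.6 FPKM in green up to number 1000, 5.35 FPKM in yellow and 4.83 FPKM in green for contigs 8001 to 14000, and 7.06 FPKM in yellow and 8.77 FPKM in green above that. The contig names also give a transcript count, whose median was 39 for the 219 loci and 18 for the other long-contig loci. The limit on FPKM chose the 219 loci, so that features that go with abundance over the whole table are not independent of it.

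Some contigs of the abundant similar loci carry other loci that missed the limit on level or on ratio, most of them the limit on level. There were 37 such loci on 35 contigs, and 34 of them had under 100 FPKM in both sectors. Their median was 27.8 FPKM in yellow and 20.8 FPKM in green. Of these 37 loci, 31 (83.8%) were within 2-fold, 4 were at least 2-fold higher in yellow and 2 at least 2-fold lower, against the 89.0% of all measured long-contig loci within 2-fold. The ratios of a locus and its companion had the same sign in 23 of the 37 pairs, and in 15 of the 19 pairs in which the log2 ratio of the abundant locus was at least 0.32 in size. Across the 37 pairs Spearman's rho was 0.48 and Pearson's r was 0.40. This is a description, since the pairs share contigs and libraries, and 2 contigs enter with 2 pairs each. The same figures for loci that share other contigs are not given, so the agreement is not read as particular to these contigs. The median distance between the log2 ratios was 0.37.

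Large gaps between loci of the same contig occurred in 6 pairs, at 1 log2 unit or more. On a 4543-base contig the abundant locus had 204 FPKM in yellow and 374 FPKM in green, while its companion had 67.6 FPKM in yellow and 18.6 FPKM in green. On a 1248-base contig the abundant locus had 209 FPKM in yellow and 222 FPKM in green, and its companion had 34.4 FPKM in yellow and 159 FPKM in green. A contig on which a locus is similar can thus carry another that differs past 2-fold, in either direction. On the 4 contigs with 2 of the 219 loci, the log2 ratios differed by 0.57 at most. On the 2366-base contig one locus had 821 FPKM in yellow and 1396 FPKM in green, and the other had 151 FPKM in yellow and 285 FPKM in green, both lower in yellow by a similar factor.

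**Figure D5:**
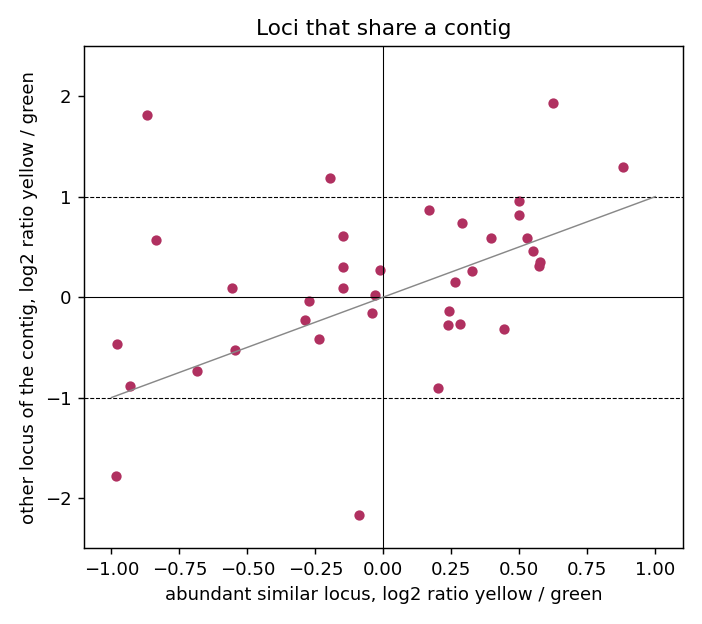
Log2 ratio of yellow to green for the other locus of a contig (vertical) against that of the abundant similar locus on it (horizontal), 1 point for each of 37 pairs; the slanted line marks equal ratios and the dashed lines mark 2-fold. Of the 37 points, 31 lie between the dashed lines, and 23 lie where both ratios have the same sign.

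Of the 447 long-contig loci that reached 100 FPKM in either sector, 82 were at least 2-fold higher and 42 at least 2-fold lower in yellow. Of all 11419 measured long-contig loci, 767 (6.72%) were at least 2-fold higher and 486 (4.26%) at least 2-fold lower. The median contig length was 1581 bases for the abundant similar loci, 2061.5 bases for the 82 higher loci and 1831 bases for the 42 lower loci, and the median transcript count was 39, 40 and 34. Without the most abundant of them, the similar loci were 1.91% of the long-contig loci. In sums that omit that locus, they held 24.0% of the summed FPKM of the long-contig loci in yellow and 25.1% in green. A share of FPKM above the share of loci is built in by the limit of 100 FPKM.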

How the data were processed

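Libraries were made with a TruSeq RNA kit from Trizol-extracted RNA, per the labels' protocols. The authors deposited a table of FPKM with 1 column for each sector, per the file headers. CASAVA 1.8.2, TopHat and Cufflinks were used, per the submitters' processing notes. The sources used here do not name the assembler, the options or the total behind FPKM. All sample columns were used (0 left out).

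From these values the log2 ratio with a pseudocount of 1, medians, shares and correlations across loci were computed with Python 3.11.15, pandas 2.3.3 and SciPy 1.17.1. The pseudocount hardly moves loci above 100 FPKM. Selection was run on simulated data with known ratios, as a check of the calculation alone. Identifiers were printed for the 2 loci with the highest and the 2 with the lowest ratio. The 10 most abundant, the 5 nearest to equality, the longest contig and the loci on either side of each limit were described by contig length, and other loci were chosen after their values were seen. The limits and the comparisons were chosen with earlier results of these data known. Lists of leaf genes were set out but not used, since 0 loci carry a name. Precision is limited by a depth that is unknown and by the lack of replicates, so no intervals or p-values are given. Alternatives were other pseudocounts, limits and scalings.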

Additional observations from a re-analysis of the deposited data

How the results depend on the processing

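Of 82 values recomputed under 14 alternatives and without the most abundant locus, 65 stayed within the limits set for them and 17 moved. Some of the 65 could not move. With the same loci selected, another pseudocount changes neither the direction of a ratio nor rho of FPKM. Centring the ratios on the median of measured loci does not change rho either. The count of 65 is therefore not a measure of stability. These limits were 1.5 times for a count, 0.1 for a median log2 ratio, 0.05 for rho and, for a share, the exact binomial 95% interval, used only as a tolerance since loci are not independent. Leaving out loci limited by the FPKM floor and leaving out the most abundant locus were chosen after seeing the data. The 219 loci became 342 with contigs from 500 bases, 67 from 2000 bases, 478 with no limit on length, 627 from 50 FPKM and 77 from 200 FPKM, as these limits take in or leave out loci by construction. From 2000 bases the median log2 ratio was 0.14, 59.7% were higher in yellow and rho was 0.69. With no limit on length, 80.2% of abundant loci were within 2-fold. With a geometric mean of at least 100 FPKM in place of both sectors, 78.9% were within 2-fold and rho was 0.73. A limit of 1.5-fold kept 68.6% of the abundant loci, of which 64.6% had a log2 ratio within 0.32 of 0, with rho 0.86. Dividing yellow FPKM by 1.18 before selection gave 190 loci with a median of -0.13 and 36.3% higher in yellow. The ratio of summed FPKM was 0.980 without the most abundant locus, against 0.763 with it. Pseudocounts of 0.1 and 10 each selected 219 loci, and 1 locus per contig left 214. No paired analysis was possible because each sector has a lone library, which also leaves no replicate to drop. The effect of depth is unknown.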

Other observations

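Of the 219 loci, 7 had a transcript count of 1 in the contig name, and these were picked out after their values were seen. All 7 were lower in the yellow sector at the deposited scaling, with log2 ratios of -0.98 to -0.07 and a median of -0.34. They include the most abundant locus, with 57389.9 FPKM in yellow and 95090.5 FPKM in green. Also among them were loci on contigs of 1171 bases (1084 FPKM in yellow, 1309 FPKM in green) and 1079 bases (363 FPKM in yellow, 387 FPKM in green). Of the other 110 measured long-contig loci with a transcript count of 1, 55 were lower in yellow, with a median log2 ratio of -0.01. Of the 212 abundant similar loci with a higher transcript count, 105 (49.5%) were higher in yellow. All 7 lay on contigs numbered above 14000, where 38.5% of 109 measured long-contig loci in all were higher in yellow, with a median log2 ratio of -0.26. No test was made.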
